A study of Mus musculus with 20 samples.

Results

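Axon guidance ligands and receptors are the cell surface and secreted proteins that steer growing axons: semaphorins with their plexin and neuropilin receptors, ephrins with the Eph receptors, Slits with the Robo receptors, and netrins. The members described here are all probe sets of the array with 1 gene symbol that belongs to one of these families, with semaphorins limited to classes 3 to 7. The rule found 119 probe sets for 61 genes, of 45037 probe sets that are not controls and 17097 genes with a symbol of their own. All 61 genes matched RefSeq by their Entrez number. Efna3, Ephb2 and Slit3 were not analysed here.

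Class 3 semaphorins are secreted and mostly bind a neuropilin that pairs with a plexin of the A type, while semaphorins of the other classes are mostly bound to the membrane and bind plexins directly. Ephrin-A ligands hang on the membrane by a lipid anchor and bind mainly EphA receptors, ephrin-B ligands cross the membrane and bind mainly EphB receptors, and both sides of such a pair can signal. Slits act on Robo receptors, and netrin-1 acts on Dcc and the Unc5 receptors. Outside the nervous system these families are known for work in blood vessel growth, cell sorting and migration of mesenchymal cells.

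The study modelled CIC-DUX4 sarcoma, a tumor of soft tissue driven by a fusion of the repressor CIC with part of the transcription factor DUX4. Total RNA of 20 mouse samples was measured on Affymetrix arrays, 1 array per sample. The 6 CDS tumors grew under the skin of Balb/c nude mice, a host that lacks T cells, from murine embryonic mesenchymal cells (eMC) that carried the fusion. The 4 samples called eMC CIC-DUX4 are such primary cells 48 hours after infection by spinofection with the retrovirus pMYs-CIC-DUX4-IRES-GFP, and the 4 samples called eMC empty received pMYs-IRES-GFP and were collected at the same time. The 6 ES tumors are mouse Ewing sarcomas grown under the skin of the same kind of host; the labels give neither their cell of origin nor their driver. The ages of the animals, the share of infected cells, and whether the eMC samples came from separate cultures are not stated. The p-values therefore cover how these particular samples vary, which may be technical variation alone.

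Values below are log2(signal + 1.42), where the signal is the deposited one and the added constant is 0.25 of the typical array median, and differences between groups are log2 fold changes on that scale. In nearly every array the values formed a low and a high mode, and the minimum between them, called the dip here, served as the limit of detection. The dip lay at 5.40 to 8.19 in eMC empty, at 3.36 to 4.45 in 3 of the eMC CIC-DUX4 arrays, at 4.01 to 8.09 in CDS tumors and at 4.48 to 5.53 in ES tumors; eMC CIC-DUX4 6 had none. CDS tumor 2, eMC CIC-DUX4 5 and eMC CIC-DUX4 6 stood apart with medians of 5.67, 6.13 and 7.05, against 2.33 to 4.01 in the other arrays, and CDS tumor 5 had the fewest probe sets above its dip among tumors, 11.7%. The 3′ minus 5′ difference of the Actb control probe sets, a sign of RNA integrity, was 0.31 to 1.28 in CDS tumors and 0.17 to 0.31 in ES tumors. It was 0.13 to 0.20 in eMC empty and 0.19 to 0.23 in eMC CIC-DUX4. Its part in the differences between the groups was not tested. All 7 CIC-DUX4 sarcoma markers tested were higher in CDS tumors than in each of the other groups, while of 8 tested Ewing sarcoma markers 1 was lower and 1 higher in CDS than in ES tumors. Over all genes, 9.37% were higher and 9.46% lower in CDS than in ES tumors. The shares higher were 12.9% against eMC empty and 4.05% against eMC CIC-DUX4. Mesenchymal markers were present in every group, with 7 to 13 of 13 above the dip. The neuron markers Map2 and Snap25 lay below the dip in every array that had one, and Elavl4, Nefl, Nefm and Stmn2 did so in every tumor. Of the 11 neuron markers on the array, 0 to 2 lay above the dip in eMC empty and 2 to 8 in eMC CIC-DUX4. In CDS tumors 0 to 4 did so, and in ES tumors 1 to 3. Stmn2 was higher in eMC CIC-DUX4 than in eMC empty, by 5.90 as deposited and 4.01 after quantile normalization. It was the only 1 of 9 tested neuron markers called there, against 7.74% of all genes.

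Because the distributions differ so much between arrays, each comparison was fitted with limma on the deposited scale and again after quantile normalization, over 12343 genes. A gene is said to be higher or lower, or to have risen or fallen, only where both fits gave a Benjamini-Hochberg adjusted p under 0.05 and a difference of at least 1 log2 unit in the same direction. Folds and adjusted p-values quoted below are those of limma on the deposited scale unless the quantile scale is named. Where every array of the dimmer group lay below its dip, the fold is given as a lower bound, measured against those dips. Where even that came to less than 1, or both groups lay below the dip, no fold is given. Such a bound holds for the deposited scale only. The quantile scale can give a smaller difference than the bound, as for Sema3a, Efna2 and Epha7 in eMC.

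Of the 61 genes, 50 had a probe set past the filter of exceeding the array median in at least 4 of the 20 arrays. The other 11 were Epha1, Epha5, Epha6, Epha8, Ephb6, Ntn3, Ntn4, Plxnc1, Robo2, Robo3 and Slit1. Their 18 probe sets never exceeded 7.44, and without the 3 arrays of high median they never exceeded 3.72. A gene that passed the filter only through the group where it was bright had to differ between groups, so the counts below describe the tested members and are no evidence for the families as a whole.

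**Figure D1:**
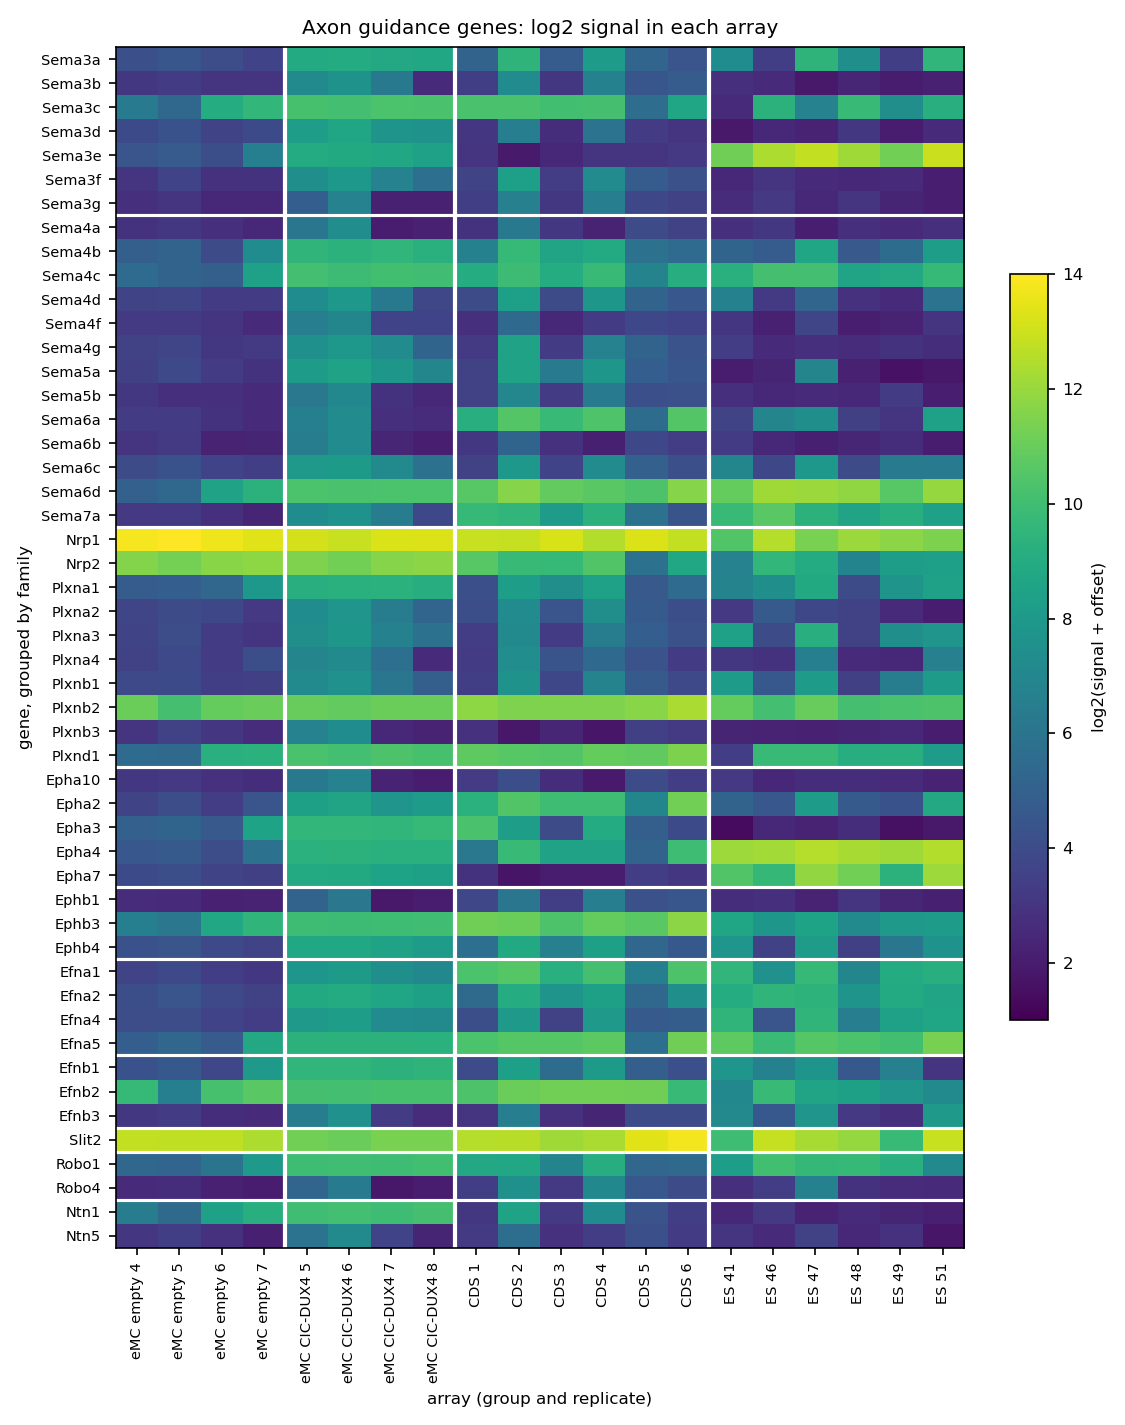
Heat map of log2(signal + offset) for the 50 tested genes (rows, grouped by family, each with its brightest probe set) in the 20 arrays (columns, white lines between the groups). Values are as deposited, so colours within a row also carry the differences in distribution between arrays. Colours of different rows do not compare the amounts of different transcripts. The Sema3e, Epha4 and Epha7 rows are bright in all 6 ES tumors, and Nrp1 and Slit2 are bright in every array. Most rows are darker in eMC empty than in eMC CIC-DUX4, where the median difference over all genes was also 2.07.

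The tumor types differed in 17 of the 50 tested members. In CDS tumors 14 genes were higher than in ES tumors, led by Epha3, Sema6a, Epha2, Sema5a and Ephb3, and 3 were lower, Sema3e, Epha7 and Epha4. The shares over all genes tested were 9.37% higher and 9.46% lower on both scales, against 14 and 3 of 50 members. On the deposited scale alone 16 members were higher and 3 lower, against 11.2% and 9.58% of all genes; quantile normalization alone gave 19 and 7, and scaling the arrays to the same median gave 3 and 7, with the median of all genes then at -0.99. Of the 17 genes called on both scales 6 were also called in that scaling, Epha3, Ephb3, Sema3b, Sema3e, Epha7 and Epha4; the other 11 kept their sign and lost the call. The median difference of the members was 1.02 as deposited and 0.38 after quantile normalization, against 0.02 and -0.03 over all genes.

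**Figure D2:**
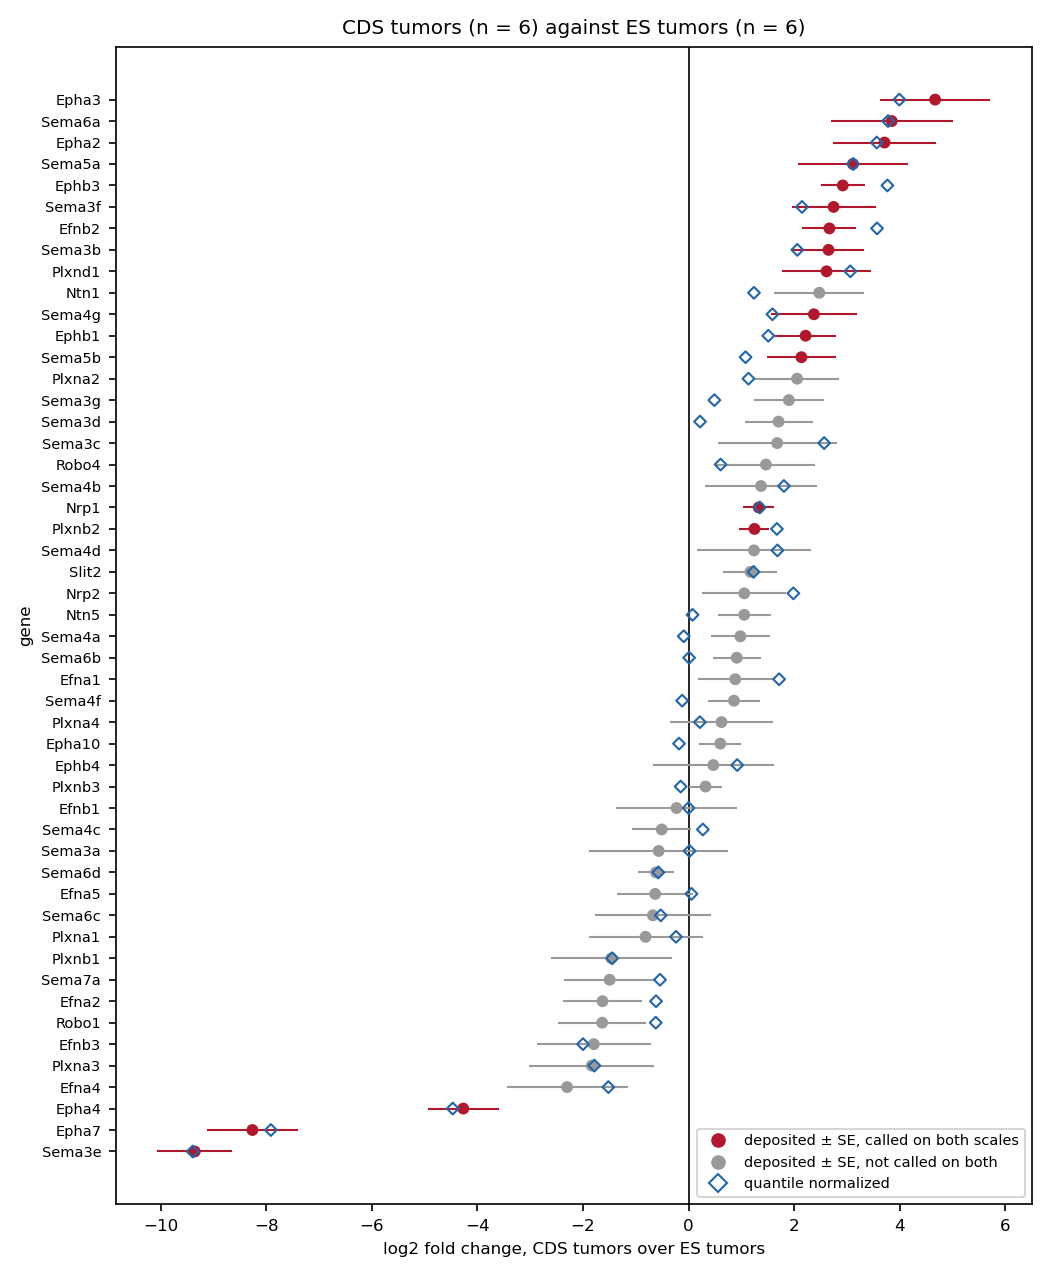
Log2 fold change of CDS over ES tumors (horizontal axis) for the 50 tested genes (vertical axis, sorted), 6 tumors each: circles with SE are the deposited scale, red where called on both scales, and open diamonds are the quantile scale. Sema3e, Epha7 and Epha4 lie far to the left of the other genes, at -9.36, -8.26 and -4.27 on the deposited scale, and their diamonds lie close to their circles.

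In eMC 48 hours after the fusion was introduced, 9 members had risen on both scales: Epha7, Sema3a, Efna2, Epha4, Sema5a, Efnb1, Sema3f, Sema7a and Sema6d. That is 9 of 50 members, against 7.74% of all genes tested; none had fallen on both scales, against 0.381% of all genes. The other probe sets of these 9 genes past the filter, where there were any, had the same sign as deposited. Only that of Sema5a was called on both scales. This eMC comparison depends on the scale more than the others. On the deposited scale 32 members were higher and 1, Slit2, was lower, against 46.4% and 4.62% of all genes, and the median over all genes was already 2.07, with 2.94 for the members. On the quantile scale the median was 0.01 over all genes and 0.31 over the members, while 6 of the 33 genes called on the deposited scale changed sign. Scaling the arrays to the same median moved the median of all genes to 0.52 and gave 0 calls by limma over all 12343 genes. Before adjustment 15 members had a limma p under 0.05 and at least 1 log2 unit, all 15 higher. The share of all genes that did so was not counted, so the 15 do not set the members apart.

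**Figure D3:**
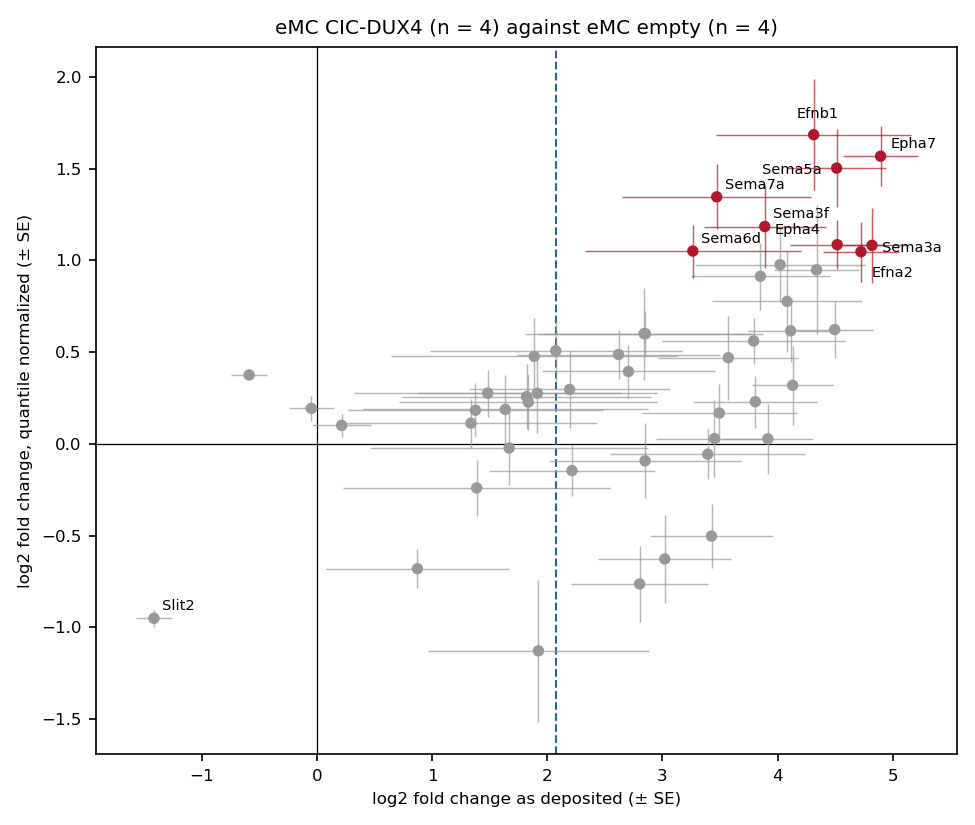
Log2 fold change of eMC CIC-DUX4 over eMC empty as deposited (horizontal axis) and after quantile normalization (vertical axis), with SE, for the 50 tested genes, 4 samples each; red points were called on both scales and the dashed line marks the deposited median of all genes, 2.07. The 9 red points lie at the upper right, many grey points lie near 0 on the vertical axis, and Slit2 is at the lower left.

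Against eMC empty, CDS tumors were higher in 11 members, among them Sema6a, Efna1, Epha2, Sema7a and Sema6d, and lower in 3, Nrp2, Sema3e and Epha7. The shares over all genes were 12.9% higher and 4.24% lower, against 11 and 3 of 50; on the deposited scale alone 13 members were higher and 3 lower, against 14.6% and 5.81%. Quantile normalization alone gave 15 higher and 6 lower, and scaling the arrays to the same median gave 4 and 1. The 5 genes called there were Sema6a, Efna1, Epha2, Sema7a and Sema3e, and the other 9 lost the call. The median over the members was 1.63 as deposited and 0.40 after quantile normalization, against 0.89 and -0.10 over all genes. In this comparison 11 of 13 tested endothelial markers and 9 of 14 macrophage markers were higher in CDS tumors, and 0 lower. The summed level of the skeletal muscle markers was 10.14 to 18.39 in CDS tumors, 4.42 to 17.93 in ES tumors and 13.35 to 13.54 in eMC empty. The part of host cells in the differences of the members was not tested.

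Against eMC CIC-DUX4, the same fusion shortly after infection, CDS tumors were higher in Sema6a, Slit2 and Ephb3 and lower in 7 genes: Epha7, Sema3e, Ntn1, Sema3d, Efnb1, Robo1 and Nrp2. These are 3 of 50 higher against 4.05% of all genes, and 7 lower against 12.5%, shares near the background in both directions. The deposited scale alone called the same numbers, 3 and 7, against 5.14% and 12.7% of all genes; quantile normalization alone gave 13 higher and 8 lower, and scaling to the same median gave 1 and 2, Sema6a, Sema3e and Epha7. These comparisons share arrays, the 3 with CDS tumors among themselves and 2 of those with the eMC comparison, so their calls are not independent of each other. Over the 4 comparisons 30 of the 50 tested members were called on both scales at least once, 15 in 2 or more, and 20 in none. The same count was not made over all genes, so these numbers do not set the members apart.

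**Figure D4:**
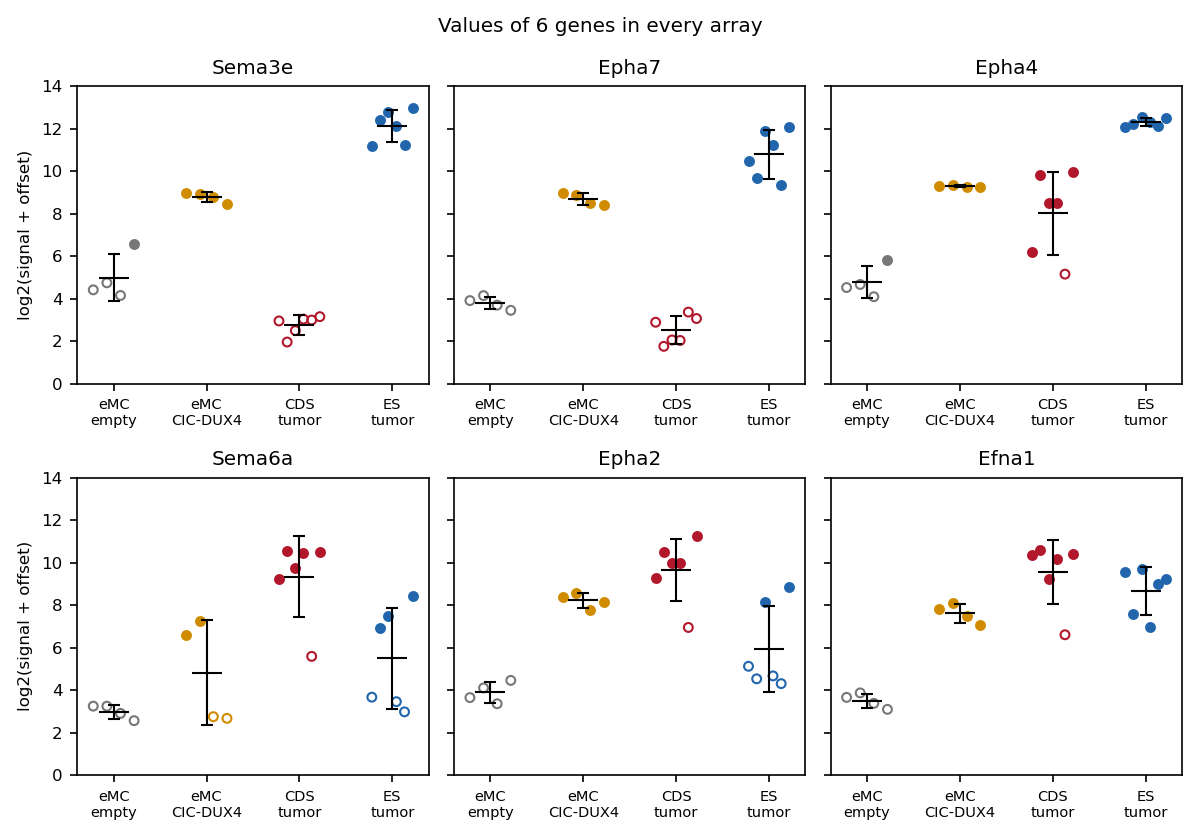
Values of 6 genes in every array (vertical axis log2(signal + offset), 1 point per array, open where below the dip of that array), by group, with mean and SD in black. Sema3e, Epha7 and Epha4 (upper row) are highest in the 6 ES tumors, and Sema6a, Epha2 and Efna1 (lower row) are below the dip in all 4 eMC empty arrays and above it in all CDS tumors but CDS tumor 5.

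Among the secreted class 3 semaphorins, Sema3e gave the widest gap between tumors. Sema3e binds Plxnd1 and is known from the patterning of blood vessels. It measured 11.17 to 12.96 in ES tumors, with a median of 12.26, and 1.95 to 3.15 in CDS tumors, with a median of 2.97. No CDS tumor came near an ES tumor, and all 6 CDS values lay below the dip. The log2 fold change was -9.36 ± 0.71 (SE, n = 6 and 6, adjusted p = 7.77e-08), which is at least 79.0-fold higher in ES tumors, and the 3 other probe sets of the gene were called the same way, at -7.85 to -6.91. In eMC empty it measured 4.41, 4.74, 4.14 and 6.59, and in eMC CIC-DUX4 8.98, 8.90, 8.76 and 8.46. All 4 samples with the fusion were thus above all 4 without it, but the deposited difference of 3.81 shrank to 0.23 after quantile normalization and was not called there. CDS tumors were lower than eMC CIC-DUX4 by -6.02 ± 0.76 (adjusted p = 0.000123), at least 7.80-fold. They were also called lower than eMC empty (adjusted p = 0.0124), with no fold given because 3 of the 4 control values lay below the dip too, and the other probe sets ranged from -0.78 to 0.29.

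Sema3a, the class 3 member best known for collapsing growth cones through Nrp1, rose with the fusion in eMC. It measured 4.16, 4.47, 4.09 and 3.61 in eMC empty, all below the dip, and 8.95, 9.01, 8.85 and 8.80 in eMC CIC-DUX4. The groups did not overlap, and the difference was 4.82 ± 0.31 (adjusted p = 8.28e-06), or 2.74 above the median of all genes, at least 4.12-fold. The quantile scale gave 1.08, and the call there was lost without eMC empty 7. In tumors Sema3a was scattered, 4.42 to 9.46 in CDS and 3.42 to 9.56 in ES tumors. Sema3f, which acts mainly through Nrp2, was also higher in eMC with the fusion, at 3.89 ± 0.53 (adjusted p = 0.000219), at least 1.09-fold. The quantile scale gave 1.18, and the call there was lost without eMC empty 4. Sema3f was higher in CDS than in ES tumors as well: 3.34 to 8.35, median 4.52, against 2.10 to 2.98, median 2.53, with no overlap. The difference was 2.75 ± 0.79 (adjusted p = 0.0203), at least 1.17-fold, and the second probe set was called the same way at 2.85. Sema3b showed a similar gap, 3.12 to 7.28 against 1.91 to 2.73 (adjusted p = 0.0102). For both genes 4 of the 6 CDS values and all ES values lay below the dip, so no fold is given for Sema3b. The CDS values above it were those of CDS tumors 2 and 4. These 2 arrays had the largest shares of probe sets above the dip among CDS tumors, 57.3% and 45.6%. The part of these array differences in the calls was not tested. Sema3d, another secreted member, measured 8.30, 8.62, 7.74 and 7.65 in eMC CIC-DUX4 and 2.69 to 6.57 in CDS tumors. These did not overlap, with a difference of -3.99 ± 1.00 (adjusted p = 0.0148); the call was lost without eMC CIC-DUX4 5 or eMC CIC-DUX4 6 (adjusted p = 0.0540 to 0.0565). Sema3c and Sema3g were not called on both scales in any comparison.

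In the membrane-bound classes, Sema6a, a ligand of plexins of the A type, was higher in CDS tumors than in every other group. It measured 9.22 to 10.53 in 5 of the CDS tumors and 5.58 in CDS tumor 5. Every eMC empty array lay below the dip, at 3.24, 3.24, 2.90 and 2.56, and eMC CIC-DUX4 split into 6.60 and 7.27 in the arrays of high median and 2.74 and 2.67 in the others. ES tumors ranged from 2.97 to 8.44 with a median of 5.29. The difference was 6.36 ± 1.09 from eMC empty (adjusted p = 0.000550, at least 5.58-fold), without overlap. It was 4.52 ± 1.21 from eMC CIC-DUX4 (adjusted p = 0.0202) and 3.85 ± 1.15 from ES tumors (adjusted p = 0.0242), with overlap in both through CDS tumor 5. The call against eMC CIC-DUX4 was lost without CDS tumor 6, eMC CIC-DUX4 7 or eMC CIC-DUX4 8 (adjusted p = 0.0514 to 0.0675), and that against ES tumors without CDS tumor 6, ES tumor 41 or ES tumor 49 (adjusted p = 0.0534 to 0.0555). The 2 other probe sets gave smaller differences, 0.62 to 2.03 against eMC empty and -0.95 to 1.66 against eMC CIC-DUX4.

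Sema7a, which is held by a lipid anchor and binds Plxnc1 and integrins, was higher than in eMC empty both in eMC CIC-DUX4 and in CDS tumors. It measured 3.16, 3.18, 2.73 and 2.34 in eMC empty, all below the dip, 7.34, 7.63, 6.53 and 3.79 in eMC CIC-DUX4, and 4.37 to 9.70, median 8.75, in CDS tumors. Neither group overlapped the controls. The call in eMC had an adjusted p of 0.00558, with no fold given, and CDS tumors exceeded eMC empty by 4.98 ± 1.19 (adjusted p = 0.00677), at least 1.97-fold. Its receptor gene Plxnc1 was among the 11 that did not pass the filter. Sema6d, a ligand of Plxna1, measured 5.00, 5.37, 8.47 and 9.37 in eMC empty, 10.32, 10.26, 10.34 and 10.34 in eMC CIC-DUX4, and 10.37 to 11.63 in CDS tumors. It was above all controls in both groups, by 3.26 ± 0.94 (adjusted p = 0.0147) and by 3.92 ± 0.80 (adjusted p = 0.00229). On the quantile scale the differences were 1.05 and 2.23. The first of these calls was lost without the arrays of high median (adjusted p = 0.0874), and on the quantile scale without eMC empty 4.

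Sema5a carries thrombospondin repeats beside its semaphorin domain. It rose with the fusion in eMC, from 3.44, 3.86, 3.24 and 2.90 to 8.15, 8.48, 7.89 and 6.97, a difference of 4.51 ± 0.43 (adjusted p = 2.48e-05), at least 2.02-fold. Its second probe set was called the same way, at 4.72. CDS tumors measured 3.58 to 8.49 and 5 of the ES tumors 1.65 to 2.34, but ES tumor 47 reached 6.91. The difference of 3.12 ± 1.04 (adjusted p = 0.0399) was lost when any of CDS tumors 2, 3 and 4 or of ES tumors 41, 46, 48, 49 and 51 was left out (adjusted p = 0.0539 to 0.0942). Sema4g and Sema5b were called higher in CDS than in ES tumors, with all ES values below the dip and overlapping groups (adjusted p = 0.0448 and 0.0270). For Sema4g the bound is 1.12-fold and for Sema5b no fold is given. For both genes the only CDS values above the dip were those of CDS tumors 2 and 4. The call of Sema4g was lost without any of CDS tumors 4, 5 and 6 or any 1 ES tumor (adjusted p = 0.0531 to 0.0846), and that of Sema5b without ES tumor 46, 47, 48 or 51 (adjusted p = 0.0505 to 0.0659) and, on the quantile scale, without CDS tumor 1 or 6. The 7 remaining members of these classes, Sema4a, Sema4b, Sema4c, Sema4d, Sema4f, Sema6b and Sema6c, were not called on both scales in any comparison.

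On the receptor side of the semaphorins, Nrp1 was bright in every array, at 13.39 to 14.08 in eMC empty, 12.92 to 13.32 in eMC CIC-DUX4, 12.52 to 13.33 in CDS tumors and 10.46 to 12.56 in ES tumors. Nrp1 is a coreceptor for class 3 semaphorins and for VEGF. CDS exceeded ES tumors by 1.33 ± 0.30 (adjusted p = 0.00439), with a slight overlap. With arrays scaled to the same median the difference was 0.32 and not called (adjusted p = 0.672), with all genes at a median of -0.99. As deposited, both other probe sets of the gene were called the same way, at 1.60 and 1.91. Nrp2, the coreceptor for Sema3f, measured 11.58, 11.28, 11.68 and 11.80 in eMC empty and 5.87 to 10.60 in CDS tumors. All tumors lay below all controls, by -2.38 ± 0.75 (adjusted p = 0.0316), while eMC CIC-DUX4 stayed at 11.25 to 11.76 and CDS tumors were lower than these too, by -2.34 ± 0.76 (adjusted p = 0.0438). Against eMC empty the call was lost without CDS tumor 6 or any 1 eMC empty array (adjusted p = 0.0540 to 0.0773), and the second probe set stood at -0.04. Against eMC CIC-DUX4 it was lost without CDS tumor 3, CDS tumor 6 or any 1 eMC CIC-DUX4 array (adjusted p = 0.0558 to 0.103), and the second probe set was called the same way at -2.58.

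Plxnd1, the receptor for Sema3e and best known in blood vessel endothelium, was higher in CDS tumors than in ES tumors and eMC empty. It measured 10.51 to 11.43 in CDS tumors, 8.20 to 9.83 in 5 ES tumors and 3.34 in ES tumor 41. In eMC CIC-DUX4 it measured 10.29, 10.12, 10.37 and 10.23, just below the CDS tumors and above all ES tumors, and in eMC empty 5.56, 5.48, 9.26 and 9.28. CDS values lay above all others, by 2.62 ± 0.85 over ES tumors (adjusted p = 0.0352) and by 3.46 ± 0.77 over eMC empty (adjusted p = 0.00446). The first call was lost without CDS tumor 1, CDS tumor 5, CDS tumor 6 or ES tumor 51 (adjusted p = 0.0536 to 0.0687). Plxnb2, a receptor for class 4 semaphorins, was 11.46 to 12.34 in CDS and 10.11 to 10.97 in ES tumors, without overlap, 1.25 ± 0.28 (adjusted p = 0.00487). With arrays scaled to the same median, where all genes had a median of -0.99, its difference was 0.24 and not called (adjusted p = 0.760). The remaining plexins tested, Plxna1 to Plxna4, Plxnb1 and Plxnb3, were not called on both scales in any comparison, and in the eMC comparison their deposited differences of 1.67 to 3.49 became -1.13 to 0.17 after quantile normalization.

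Endothelial markers, like Plxnd1, were highest in CDS tumors and lowest in eMC empty, but the groups between did not follow the same order: eMC CIC-DUX4 exceeded ES tumors in Plxnd1, with means of 10.25 and 8.24, and not in the marker sum, with means of 9.97 and 11.63. The summed level of the 14 endothelial markers was 13.65 to 14.05 in CDS tumors, 9.98 to 12.79 in ES tumors, and 9.17 to 11.10 in eMC CIC-DUX4. In the eMC empty arrays it was 6.01 to 6.79, and none of the 14 lay above the dip there. CDS exceeded ES tumors in this sum by 2.29 (exact two-sided permutation test over tumors, p = 0.00216, adjusted over 44 such tests 0.0131). Of 13 tested markers 5 were higher in CDS tumors, against 9.37% of all genes, with Tek, Tie1 and Vwf below the dip in every ES tumor. The summed level of the pericyte markers was 14.13 to 16.02 in CDS and 11.74 to 13.78 in ES tumors, but only 1 of the 5 tested, Rgs5, was called higher on both scales, at 2.19. Fewer cells of a type and less RNA per cell cannot be told apart in such bulk samples, and the part of host vessels in the levels of Plxnd1, and of Nrp1, Efnb2 and Robo4 below, was not tested.

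The EphA receptors went in opposite directions in the tumors. Epha7 measured 9.34 to 12.08 in ES tumors, median 10.87, and 1.75 to 3.36 in CDS tumors, median 2.47. The groups were far apart and every CDS value lay below the dip. The difference was -8.26 ± 0.86 (adjusted p = 3.02e-06), at least 31.4-fold higher in ES tumors, and both other probe sets were lower too, at -6.40 and -1.81, the first of them called. In eMC it measured 3.90, 4.14, 3.69 and 3.44 with the empty vector and 8.95, 8.89, 8.52 and 8.39 with the fusion. That rise, 4.89 ± 0.32 (adjusted p = 8.28e-06), or 2.82 above the median of all genes, was the largest among the members on the deposited scale, at least 3.55-fold; the quantile scale gave 1.57. In eMC its 2 other probe sets gave 1.25 and 3.78 and were not called on both scales. CDS tumors were lower than eMC CIC-DUX4 by -6.17 ± 0.77 (adjusted p = 0.000120), at least 7.34-fold. They were also called lower than eMC empty (adjusted p = 0.0364), but every array of both groups lay below its dip, so no fold is given, and the call was lost without any of CDS tumors 3 and 4 and eMC empty 4, 5 and 6 (adjusted p = 0.0702 to 0.103).

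Epha4, which binds ephrins of both classes, measured 12.08 to 12.53 in ES tumors and 5.15 to 9.96 in CDS tumors. The ES values were tight and all above CDS, with a difference of -4.27 ± 0.68 (adjusted p = 0.000232), and both other probe sets were called the same way, at -5.01 and -3.88. In eMC it rose with the fusion from 4.52, 4.66, 4.08 and 5.82 to 9.30, 9.36, 9.26 and 9.24, a difference of 4.52 ± 0.41 (adjusted p = 2.01e-05). The quantile scale gave 1.09. Epha3 showed the opposite direction between tumors, at 3.92 to 10.28 in CDS tumors, median 6.58, and 1.40 to 2.72 in ES tumors, all below the dip. No tumor overlapped, and the difference of 4.67 ± 1.05 (adjusted p = 0.00433) is at least 3.21-fold. In 3 of the 6 CDS tumors Epha3 was itself below the dip. The sum of the keratinocyte markers was 10.22 to 14.36 in ES tumors and 6.46 to 9.24 in CDS tumors, with 3 of 9 tested markers, Krt15, Cdh1 and Krt10, called lower in CDS tumors on both scales. Over all genes 9.46% were lower and 9.37% higher. The sum of the neuron markers was 8.04 to 10.67 against 6.40 to 9.61, and its 2 called markers of 9 tested went opposite ways, Tubb3 at -3.26 and Gap43 at 3.12 in CDS against ES tumors. Their part in the ES levels of Sema3e, Epha7 and Epha4 was not tested.

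Epha2, an EphA receptor known from epithelia and many tumors, was higher in CDS tumors than in ES tumors and eMC empty. It measured 3.64, 4.10, 3.35 and 4.45 in eMC empty, all below the dip, 8.39, 8.58, 7.78 and 8.14 in eMC CIC-DUX4, 6.94 to 11.25, median 9.97, in CDS tumors and 4.30 to 8.86, median 4.89, in ES tumors. CDS tumors lay above all eMC empty arrays, by 5.76 ± 0.95 (adjusted p = 0.000399), at least 6.91-fold, and overlapped ES tumors, with a difference of 3.71 ± 0.98 (adjusted p = 0.0122). In eMC the fusion arrays were above all controls at 4.34 as deposited, but the quantile scale gave 0.95, just short of 1 log2 unit. Efna1, the ephrin-A ligand that binds Epha2, had a similar order of groups except in ES tumors. It measured 3.65, 3.86, 3.37 and 3.09 in eMC empty, 7.81, 8.08, 7.47 and 7.07 in eMC CIC-DUX4, 6.60 to 10.57 in CDS and 6.95 to 9.71 in ES tumors. CDS tumors exceeded eMC empty by 6.05 ± 0.98 (adjusted p = 0.000330), at least 6.44-fold, and the second probe set was called the same way at 4.35, while CDS and ES tumors overlapped (0.88 ± 0.71, adjusted p = 0.368).

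The start regions of 4 of these genes are shown next. Epha2 and Efna1 were higher in CDS tumors than in eMC empty, and Sema3e and Epha7 were higher in ES than in CDS tumors. CIC binds DNA at an octamer, and the fusion keeps the DNA-binding part of CIC, so the octamer was searched as TGAATGAA, TGAATGGA, TCAATGAA and TCAATGGA on both strands of the RefSeq promoter table (GRCm38.p6, 250 bases before to 50 after each start, read along the gene). Capitals mark a match. The Epha2 region is chr4:141300971-141301270 on the plus strand, that of Efna1 chr3:89280902-89281201 on the minus strand, that of Sema3e chr5:14025026-14025325 on the plus strand and that of Epha7 chr4:28812881-28813180 on the plus strand.
Epha2: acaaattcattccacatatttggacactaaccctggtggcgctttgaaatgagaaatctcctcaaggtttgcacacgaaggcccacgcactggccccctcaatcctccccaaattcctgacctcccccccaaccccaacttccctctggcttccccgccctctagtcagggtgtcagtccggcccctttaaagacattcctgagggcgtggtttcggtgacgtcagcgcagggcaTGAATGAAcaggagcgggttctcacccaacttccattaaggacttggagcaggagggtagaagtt
Efna1: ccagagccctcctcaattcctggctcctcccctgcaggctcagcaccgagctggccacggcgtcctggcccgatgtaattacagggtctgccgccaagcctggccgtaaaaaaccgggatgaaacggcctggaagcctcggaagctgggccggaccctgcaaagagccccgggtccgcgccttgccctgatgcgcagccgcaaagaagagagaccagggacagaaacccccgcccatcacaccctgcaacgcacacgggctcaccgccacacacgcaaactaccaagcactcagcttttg
Sema3e: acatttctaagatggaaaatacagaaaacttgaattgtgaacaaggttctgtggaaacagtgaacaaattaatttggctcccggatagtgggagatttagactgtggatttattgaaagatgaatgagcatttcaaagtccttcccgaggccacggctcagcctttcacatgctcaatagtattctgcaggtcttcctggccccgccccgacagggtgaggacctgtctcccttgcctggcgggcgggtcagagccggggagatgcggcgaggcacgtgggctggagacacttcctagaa
Epha7: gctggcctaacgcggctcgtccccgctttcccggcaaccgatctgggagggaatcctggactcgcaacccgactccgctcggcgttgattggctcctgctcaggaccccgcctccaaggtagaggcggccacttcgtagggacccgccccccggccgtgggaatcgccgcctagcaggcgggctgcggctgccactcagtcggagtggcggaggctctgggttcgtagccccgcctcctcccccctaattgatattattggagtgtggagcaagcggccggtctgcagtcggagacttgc
Epha2 holds TGAATGAA at bases 236 to 243 of its 300, just before the start, and the other 3 hold no match. Efna1 and Epha7 each have 2 promoters in the table, of which the first is shown. Of the 61 member genes 53 had a promoter there, and Epha2 was the only 1 of the 53 with a match, 1.89%, against 4.45% of all 27025 genes and 3.84% of all 32851 promoters. The motif GGAAGGAA, a repeat of GGAA of the kind known for EWS-FLI1, the usual fusion of Ewing sarcoma, was found in 4 of the 53, Epha1, Ntn3, Plxnb2 and Sema4a, 7.55% against 4.36% of all genes. Epha1 and Ntn3 did not pass the filter and were not tested. Plxnb2 was called higher in CDS tumors and Sema4a was not called. The 4 regions had a GC content of 54.7%, 63.7%, 50.7% and 67% in the order printed, against a median of 63.8% over the members' promoters and 52.7% over all promoters. A match here describes the sequence and is not evidence of binding.

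Of the EphB receptors, Ephb3 was higher in CDS tumors than in the other 3 groups. It measured 10.37 to 11.75 in CDS tumors, 7.22 to 8.63 in ES tumors and 9.94, 9.93, 9.97 and 10.03 in eMC CIC-DUX4. The eMC empty arrays gave 6.62, 6.16, 8.73 and 9.51. Every CDS tumor lay above every other array. The difference was 2.92 ± 0.42 from ES tumors (adjusted p = 8.32e-05) and 3.25 ± 0.66 from eMC empty (adjusted p = 0.00226). It was 1.03 ± 0.34 from eMC CIC-DUX4 (adjusted p = 0.0494), a call that was lost without any 1 of CDS tumors 1, 2, 4 and 6 and of the eMC CIC-DUX4 arrays (adjusted p = 0.0577 to 0.139). Ephb1 was 3.42 to 6.56 in CDS tumors, 2.12 to 2.94 in ES tumors and 2.63, 2.59, 2.21 and 2.29 in eMC empty. CDS tumors did not overlap either group (adjusted p = 0.0124 against ES tumors and 0.0230 against eMC empty), but 4 of 6 CDS values lay below the dip, so no fold is given. Those above it were CDS tumors 2 and 4. The call over eMC empty was lost without any 1 eMC empty array (adjusted p = 0.0571 to 0.0856). Ephb4, the receptor for Efnb2 and a marker of veins, was not called on both scales in any comparison.

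Of the 4 tested ephrin-A ligands, Efna1, Efna2 and Efna5 were called higher in CDS tumors than in eMC empty, against 12.9% of all genes. None was called on both scales between the tumor types, against 9.37% higher and 9.46% lower over all genes. Besides Efna1, Efna2 rose with the fusion in eMC, from 4.12, 4.44, 3.88 and 3.56, all below the dip, to 8.89, 8.98, 8.62 and 8.41. That is a difference of 4.72 ± 0.33 (adjusted p = 8.35e-06), at least 3.64-fold, with 1.05 on the quantile scale, where the call was lost without eMC empty 7. In CDS tumors Efna2 measured 5.36 to 9.03, above all eMC empty arrays by 3.24 ± 1.04 (adjusted p = 0.0356), at least 1.30-fold. This call was lost without CDS tumor 2, 3 or 4 or any 1 eMC empty array (adjusted p = 0.0526 to 0.105). Efna5 was higher in CDS tumors than in eMC empty by 3.91 ± 1.10 (adjusted p = 0.0181), with 5.73 in CDS tumor 5 and 10.33 to 11.18 in the others against 4.90, 5.27, 4.74 and 8.85. The groups overlapped through CDS tumor 5 and eMC empty 7, and the gene lost the call without eMC empty 4 or 5 (adjusted p = 0.0511 to 0.0577).

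Among the ephrin-B ligands, Efnb1 was higher in eMC CIC-DUX4 than in both eMC empty and CDS tumors. It measured 9.53, 9.58, 9.35 and 9.45 with the fusion in eMC, 4.29, 4.58, 3.75 and 8.04 with the empty vector and 3.98 to 8.31 in CDS tumors. The fusion arrays did not overlap either group, at 4.31 ± 0.85 over eMC empty (adjusted p = 0.00202) and -3.64 ± 0.98 for CDS tumors against them (adjusted p = 0.0207). The quantile scale gave 1.69 and -2.52. The second call was lost without any 1 eMC CIC-DUX4 array (adjusted p = 0.0548 to 0.0709). Efnb2, which marks arterial endothelium, was 9.77 to 11.26 in CDS and 7.09 to 9.78 in ES tumors. The groups touched at 1 tumor each, and the difference was 2.67 ± 0.51 (adjusted p = 0.00128), with 0.72 and 1.75 for the 2 other probe sets. Efnb3 was not called on both scales in any comparison.

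Slit2, the Slit that repels axons through Robo1 and Robo2, was bright in every array. It measured 12.80, 12.78, 12.74 and 12.41 in eMC empty and 11.22, 11.06, 11.38 and 11.40 in eMC CIC-DUX4, without overlap, a difference of -1.41 ± 0.16 (adjusted p = 7.03e-05). The quantile scale gave -0.95 (adjusted p = 4.97e-09), just short of 1 log2 unit, so Slit2 is not counted as fallen. CDS tumors, at 12.16 to 13.79, were above all eMC CIC-DUX4 arrays by 1.54 ± 0.32 (adjusted p = 0.00473) and close to eMC empty (0.13). That call was lost without the arrays of high median (adjusted p = 0.0858), and the second probe set gave 0.16. Its receptor gene Robo1 measured 9.97, 10.01, 9.96 and 10.09 in eMC CIC-DUX4 and 5.29 to 9.11 in CDS tumors, which did not overlap, -2.61 ± 0.84 (adjusted p = 0.0433). The call was lost without CDS tumor 3, CDS tumor 6 or any 1 eMC CIC-DUX4 array (adjusted p = 0.0731 to 0.114). Robo4, a receptor of endothelial cells, was 3.19 to 7.55 in CDS tumors against 2.59, 2.68, 2.19 and 2.07 in eMC empty (adjusted p = 0.0413). No fold is given, since 4 of 6 CDS values and all controls lay below the dip, and the call was lost without CDS tumor 4 or any 1 eMC empty array (adjusted p = 0.0610 to 0.108). The CDS values above the dip were those of CDS tumors 2 and 4.

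Of the netrins, Ntn1 was bright in eMC CIC-DUX4 and dim in most tumors. It measured 10.03, 10.13, 9.97 and 10.18 in eMC CIC-DUX4, 3.10 to 8.47 in CDS tumors and 2.13 to 3.17 in ES tumors. The eMC empty arrays measured 6.45, 5.49, 8.43 and 9.13. CDS tumors lay below all eMC CIC-DUX4 arrays by -5.10 ± 1.12 (adjusted p = 0.00700), with 4 of 6 values under the dip. All ES values were below the dip. The difference of 2.70 in eMC on the deposited scale was 0.39 after quantile normalization and was not called there. Ntn5 was not called on both scales in any comparison.

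**Figure D5:**
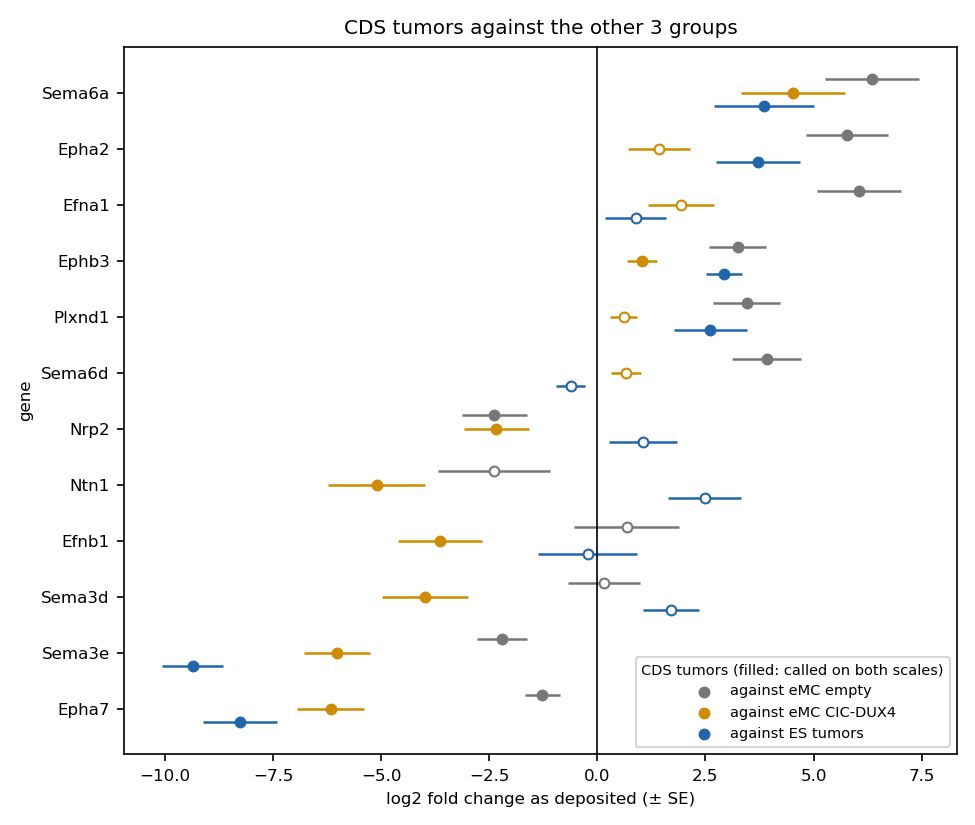
Log2 fold change with SE (horizontal axis, deposited scale) of CDS tumors against eMC empty (grey), eMC CIC-DUX4 (orange) and ES tumors (blue) for 12 genes (vertical axis); filled points were called on both scales. All 3 differences of Sema6a and Ephb3 are filled and positive, all 3 of Sema3e and Epha7 are filled and negative, and those of Ntn1, Efnb1 and Sema3d are filled against eMC CIC-DUX4 but not in the other comparisons; the CDS tumors are the same in all 3, and Epha7 lay below the dip in every CDS and every eMC empty array.

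Other genes of the same pathways were listed by role. Of 14 tested receptors and coreceptors outside the families, 4 were higher and 1 lower in CDS than in ES tumors (9.37% and 9.46% of all genes), 4 higher and 0 lower than in eMC empty (12.9% and 4.24%), and 3 higher and 3 lower than in eMC CIC-DUX4 (4.05% and 12.5%). The leading gene was Unc5c, a netrin receptor, at 7.73 ± 0.91 over ES tumors (adjusted p = 1.25e-05) and 6.55 ± 0.66 over eMC empty (adjusted p = 2.48e-06). Dcc, the attractive netrin receptor, was higher in CDS tumors than in ES tumors by 3.84 ± 1.11, than in eMC empty by 4.96 ± 1.00, at least 1.09-fold, and than in eMC CIC-DUX4 by 4.32 ± 1.18 (adjusted p = 0.0199, 0.00208 and 0.0223). In eMC 3 of the 14 rose with the fusion, against 7.74% of all genes: Chl1, a cell adhesion molecule of the L1 family, by 4.84 ± 0.53 (adjusted p = 5.68e-05), Ptprs by 2.19 and Neo1, a netrin and RGM receptor, by 1.49. The quantile scale gave 1.84, 1.42 and 1.29. As deposited the median over all genes was 2.07 in this comparison, above the difference of Neo1.

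Of 10 tested ligands and modulators, 2 were higher and 1 lower in CDS than in ES tumors, against 9.37% and 9.46% of all genes: Rgmb at 3.36, Ext1 at 1.35 and the neurotrophin Bdnf at -3.82 ± 0.85 (adjusted p = 0.00398). The chemokine Cxcl12 was lower in CDS tumors than in eMC empty, by -2.36 on the quantile scale (adjusted p = 0.000867), and than in eMC CIC-DUX4, by -1.91 on the deposited scale. Of 41 tested signalling proteins, 4 were higher and 4 lower in CDS than in ES tumors, shares near those of all genes (9.37% and 9.46%). Against eMC empty 8 were higher and 3 lower (12.9% and 4.24% of all genes), against eMC CIC-DUX4 2 higher and 6 lower (4.05% and 12.5%), and 5 rose in eMC with the fusion (7.74%). Crmp1, a mediator of semaphorin signals on microtubules, stood at -5.29 ± 0.93 in CDS against ES tumors (adjusted p = 0.000618), and Chn2, a Rac inhibitor, at 5.19 ± 0.92 (adjusted p = 0.000644), at least 6.67-fold. Vav3, an exchange factor downstream of Eph receptors, was higher in CDS tumors than in eMC empty by 6.87 ± 1.09 (adjusted p = 0.000289), at least 7.32-fold, and Limk1, a kinase that acts on the actin cytoskeleton through cofilin, by 6.25 ± 0.69 (adjusted p = 6.22e-06). Pak3, a kinase driven by Rac, rose in eMC with the fusion by 3.22 ± 0.90 (adjusted p = 0.0129) and was lower in CDS tumors than in those cells by -8.02 ± 0.79 (adjusted p = 1.67e-05), at least 29.3-fold. On the quantile scale these differences were 1.34 and -7.67.

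The 20 tested members never called on both scales ranged from 1.34 to 4.50 as deposited in the eMC comparison but from -1.13 to 0.98 after quantile normalization. Between tumor types they lay between -2.30 and 2.06 on the deposited scale. They include all A-type plexins, the receptors of many semaphorins, and Efna4, Epha10 and Ephb4.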

How the data were processed

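The submitters' processing notes name MAS5, with no version or settings. The deposited values are log2 signals of 45141 probe sets per array; the 104 control probe sets were left out, and the linear 2% trimmed means were 500.1 to 500.3 in every array. Values were returned to the linear scale and used as log2(signal + 1.42). Of 45037 probe sets, 28898 had 1 symbol, 551 several and 15588 none in GEO's platform annotation. Probe sets above the array median in at least 4 arrays were kept, the brightest on average stood for its gene, and 12343 genes were fitted in each of the 4 comparisons with limma 3.58.1 (lmFit, eBayes with trend; R 4.3.3), once as deposited and once after quantile normalization; scripts were tested on simulated data. Thresholds were a Benjamini-Hochberg adjusted p of 0.05 and 1 log2 unit. Values of every array are given for up to 6 genes per direction and comparison whose groups do not overlap, and for further called genes chosen after their values were seen. The number of arrays limits the precision, and no 2 arrays held identical values. Alternatives were other scalings, offsets, filters, probe set means, a stricter p, no minimum fold, a joint fit, replicate blocks and leaving out arrays. The members and lists were chosen with earlier results of these data known.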

Additional observations from a re-analysis of the deposited data

Results flagged for a closer look

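In 7 of the 92 gene and group combinations looked at, 1 array lay far from the rest of its group by Dixon's test, which chance does in about 1 of 20. Sema5a was 6.91 in ES tumor 47 against 1.65 to 2.34 in the other ES tumors. Plxnd1 was 3.34 in ES tumor 41 against 8.20 to 9.83. CDS tumor 5, the tumor with the fewest probe sets above its dip, was low for Sema6a, at 5.58 against 9.22 to 10.53, and for Efna1, at 6.60 against 9.24 to 10.57; after quantile normalization its values were 8.12 and 9.81. Among the eMC empty arrays, Epha3 was 8.53 in replicate 7 against 4.61 to 5.21, Slit2 was 12.41 in replicate 7 against 12.74 to 12.80, and Sema3f was 3.63 in replicate 5 against 2.85 to 2.97.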

How the results depend on the processing

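None of the 50 calls on both scales changed direction under any alternative run. In eMC CIC-DUX4 against eMC empty, the 33 calls as deposited became 10 after quantile normalization and 0 with arrays scaled to the same median, and the 9 calls on both scales became 2 with the mean of a gene's probe sets, 2 with all groups in 1 fit and 20 without a minimum fold change. In CDS against ES tumors, scaling to the same median gave 10 calls in place of 19, and an adjusted p under 0.01 gave 8 as deposited and 8 on both scales in place of 17. In CDS tumors against eMC empty, scaling to the same median gave 5 in place of 16, and an adjusted p under 0.01 gave 7 and 7, in place of 14 on both scales. In CDS tumors against eMC CIC-DUX4, the 10 calls became 21 after quantile normalization and 3 with arrays scaled to the same median, 4 and 4 at an adjusted p under 0.01, and 5 and 5 without the 3 arrays of high median.

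Leaving out 1 array at a time gave 29 to 35 calls as deposited and 8 to 10 on both scales in eMC, 13 to 19 and 13 to 16 in CDS against ES tumors, 8 to 16 and 8 to 15 in CDS tumors against eMC empty, and 5 to 14 and 5 to 13 in CDS tumors against eMC CIC-DUX4. Against eMC empty the counts were 8 without replicate 4 or 5 of the controls and 9 without replicate 6; against eMC CIC-DUX4 they were 6 without CDS tumor 6 and 5 without any 1 eMC CIC-DUX4 array. Of these 50 calls, 29 were kept whichever array was left out. Without the arrays of high median, Sema6d in eMC (adjusted p = 0.0874), Sema5a in CDS against ES tumors (0.0629), Efna2 in CDS tumors against eMC empty (0.0526) and, against eMC CIC-DUX4, Slit2 (0.0858), Ephb3 (0.265), Efnb1 (0.0993), Robo1 (0.175) and Nrp2 (0.163) lost the call; Efna2 in eMC lost it on the quantile scale.

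Replicate numbers are shared by some groups. In eMC same-numbered arrays deviated together with correlations of 0.38, -0.19 and 0.38, and differently numbered arrays with -0.47 to 0.46. These values cannot show whether arrays of the same number belong together, and the main fits used no pairs. With a replicate block the calls as deposited were 34 in eMC, 33 in CDS tumors against eMC CIC-DUX4 and 10 against eMC empty, the last chosen after seeing the data. For CDS tumors against eMC CIC-DUX4 the difference then came only from arrays numbered 5 and 6, which both groups hold. The labels state no link between tumor and culture numbers, so the 33 cannot be set against the 10 of the main fit. The dip, as high as 8.19 in eMC empty, limits what these arrays can show for dim genes.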
